A study of Mus musculus with 9 samples.

Results

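Incretin receptors and the genes of cyclic AMP (cAMP) signalling were examined as a set of 44 mouse genes, chosen by symbol as members of the pathway, with earlier results of these data known, and all found among the 23329 genes of the islet count table. The set holds 4 receptors, 5 G protein alpha subunits, 7 adenylyl cyclases, 7 genes for protein kinase A (PKA) and an anchor of it, 2 Epac genes, 10 phosphodiesterases, 6 CREB and CRTC genes and 3 salt-inducible kinases. Polyadenylated RNA of pancreatic islets from male mice was sequenced in 4 control libraries, labelled Pdx1+/-, and 5 mutant libraries, labelled Pdx1A4, a name that the labels do not explain. The controls therefore carry an altered Pdx1 genotype themselves, and no library is labelled wild type. Age, and how the islets were kept, were not resolved from the labels, and no label ties a library to an animal. The p-values below therefore cover variation among libraries, and that variation may be technical.

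The incretin hormones GLP-1 and GIP bind receptors on beta cells that act through the stimulatory G protein to switch on adenylyl cyclases. The cAMP they make releases the catalytic subunits of PKA from its regulatory subunits and activates the exchange factor Epac2, and both raise insulin release. Phosphodiesterases break cAMP down, inhibitory G proteins restrain its synthesis, and in the nucleus CREB, with its CRTC coactivators, carries the signal to target genes, while salt-inducible kinases hold the CRTCs in the cytoplasm.

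The libraries held 6092010 to 9163253 counts. Pdx1, the homeodomain factor named in the genotypes, stood at 23.8 to 36.0 CPM (counts scaled to a common library total, with totals adjusted by TMM) in the controls and 4.18 to 19.9 in the mutants. The tissue label was checked against markers. The 7 islet hormone genes summed to 132970 to 218447 CPM in the controls and 853 to 76824 in the mutants, and took 16.9% to 21.0% of control counts but 7.99%, 0.0691%, 1.21%, 4.70% and 7.27% in mutants 1 to 5. Mutants 2 and 3 thus stood apart with very few hormone counts, and values without them are given beside the named calls they move. Summed over its list, beta cell markers ran from 2400 to 3099 CPM in controls and 202 to 1261 in mutants. Alpha cell markers ran from 362 to 678 and 124 to 247, and delta cell markers from 135 to 318 and 9.71 to 116. The sum of 26 genes of the general secretory apparatus of endocrine cells ran from 18149 to 23038 and 208 to 10442. The mean log2 CPM of the 24 of them that passed the filter on low counts is the endocrine score used below. Acinar markers moved the other way, from 21782 to 49216 CPM in controls to 120719 to 283428 in mutants, with 25 of 26 genes higher, and ductal markers went from 4614 to 12912 to 17035 to 29485, with 8 of 15 higher and 1 lower. By the same test, described below, 0 of 7 hormone genes and 6 of 14 beta cell markers were lower. For alpha, delta and secretory genes the lower calls were 2 of 6, 2 of 2 and 9 of 24, and none of these genes was higher. Of all tested genes, 11.8% fell and 20.6% rose. For the remaining cell types, endothelial (55.2 to 173 and 8.63 to 98.9), macrophage (79.9 to 464 and 308 to 560), stellate (135 to 283 and 4.72 to 314), Schwann cell and neuron (16.8 to 26.7 and 1.08 to 20.2) and muscle and blood (3.28 to 14.5 and 0.270 to 6.42) marker sums are given in the same order, and no marker was at 0 in all 9 libraries. Fewer cells of a type and less RNA per cell cannot be told apart in such bulk samples.

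Of the 44 genes, 37 passed the filter on low counts and were tested by edgeR's quasi-likelihood test with Benjamini-Hochberg adjustment over all 12402 genes tested, two-sided, at 0.05. By that test 11 of the 37 fell in the mutants and 3 rose, while 23 did not pass. Of all genes tested, 11.8% fell and 20.6% rose, against 29.7% and 8.11% of the 37. The median log2 fold change of the 37, mutant minus control, was -0.85, beside 0.04 over all tested genes, and 32 of the 37 values were negative. Every mutant lay below every control for 16 of the 37 and above for 3, where the shares over all tested genes were 14.7% and 18.5%. With RLE in place of TMM scaling, which moved the median of all genes by -0.10, the calls were 14 lower and 1 higher, so that the higher share of the calls went from 21.4% to 6.67%. DESeq2 called 22 lower and 3 higher, where it called 20.8% and 20.5% of all genes, and limma-voom called 22 and 4, against 18.5% and 24.3%. Endocrine markers were lower and acinar markers higher in the same mutants, and fits with either as a covariate are given after the single genes.

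**Figure D1:**
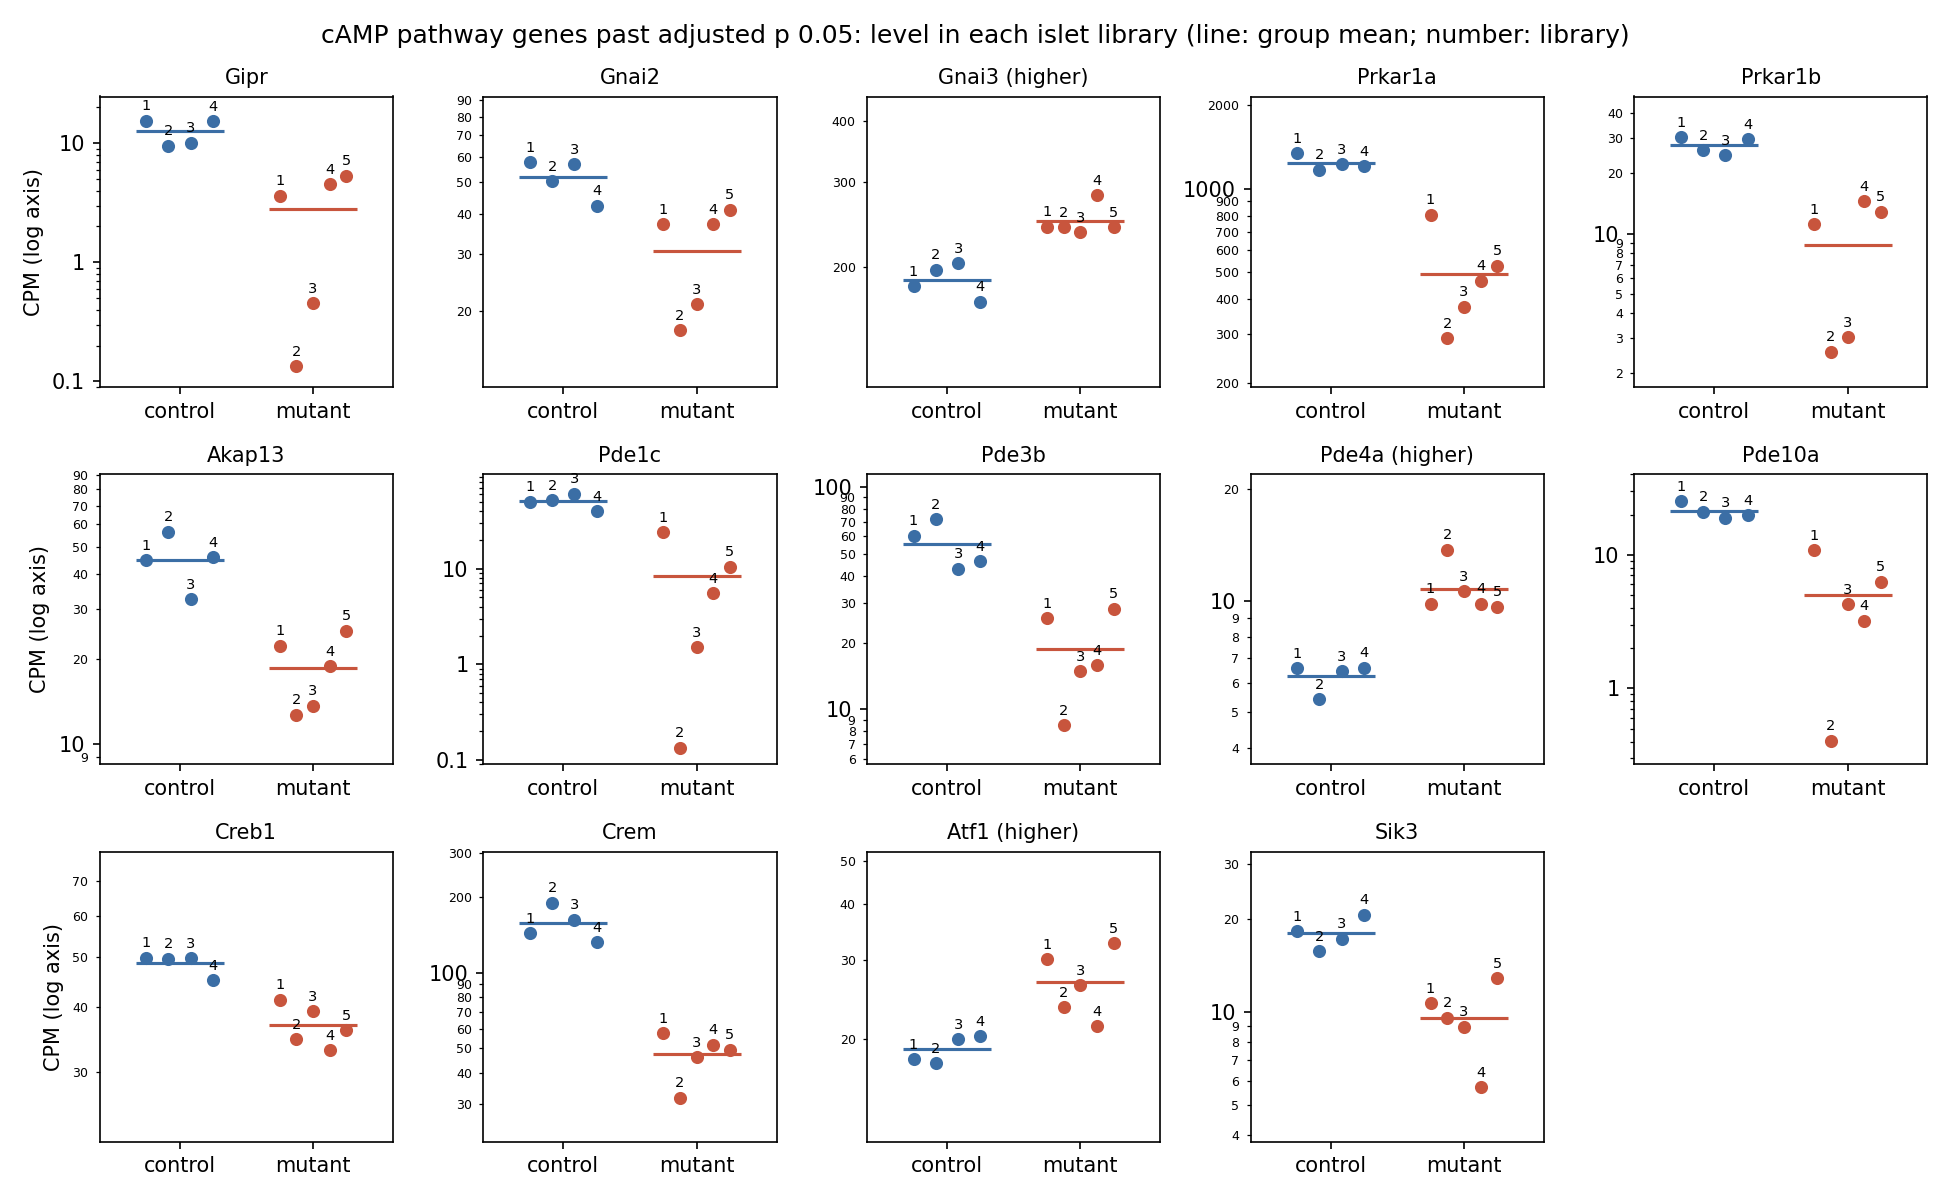
Level of the 14 genes past the threshold in each library, in CPM on log axes, with each point numbered by library and lines at the group means. In 11 panels the 5 mutant points lie below the 4 control points, with mutant 2 lowest in all of them but Creb1 and Sik3, and in the panels of Gnai3, Pde4a and Atf1 they lie above.

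The receptors sit at the head of the pathway. Gipr, the receptor for GIP (chromosome 7, positions 19156061 to 19166127 of GRCm38), was measured at 15.4, 9.51, 10.1 and 15.3 CPM in controls 1 to 4 and at 3.63, 0.135, 0.455, 4.54 and 5.35 CPM in mutants 1 to 5. All mutants lay below all controls, and mutants 2 and 3 held only 1 and 3 counts. The gene fell by 2.15 ± 0.70 (SE) on the log2 scale, with an adjusted p of 0.0406 in edgeR's test. The call was lost without any one of the 4 controls or without mutant 3, where the adjusted p reached 0.0979, and it held without mutants 2 and 3 together, at -1.54 (adjusted p 0.0103). Glp1r, the receptor for GLP-1 and the target of GLP-1 drugs, was at 26.0, 17.3, 17.1 and 31.3 CPM in the controls and 9.20, 0.809, 3.49, 16.4 and 10.6 in the mutants. These groups did not overlap either, though mutant 4 came close to the lowest control. Its log2 fold change was -1.50 ± 0.61 and did not pass edgeR's test (adjusted p 0.0797), but it passed without mutants 2 and 3, at -0.996 (adjusted p 0.0479), without mutant 2 alone, at -1.28 (0.0407), and without mutant 4 alone, at -1.98 (0.0407). With any other single library left out Glp1r did not pass (adjusted p up to 0.169, without control 4). Other genes uncalled in the main fit likewise passed with 1 library left out only where that is stated below. The ratio of Gipr to Glp1r counts, which does not depend on the scaling, ran from 0.489 to 0.595 in the controls and from 0.130 to 0.506 in the mutants, so that the groups overlapped.

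Gcgr encodes the glucagon receptor, which beta cells also carry. Its levels were 16.8, 14.0, 10.5 and 16.3 CPM in controls and 7.87, 0.135, 1.21, 9.51 and 11.4 in mutants. Mutant 5 exceeded control 3, and the log2 fold change of -1.26 ± 0.75 did not pass (edgeR's adjusted p 0.212). It was -0.65 without mutants 2 and 3 (0.0884). Adcyap1r1, a receptor for the neuropeptide PACAP, gave 3, 2, 0 and 10 counts in the controls and 0 in every mutant, and was too low to be tested. A count of 0 among the 40606449 counts of the 5 mutants allows up to 0.0739 CPM of the unscaled totals, beside 0.540 in the pooled controls, an allowance for counting error only. Per kilobase of annotated exon, the order in controls was Gcgr at 7.37 ± 1.46 CPM per kb (SD, n = 4), Gipr at 4.41 ± 1.13 and Glp1r at 3.94 ± 1.20, the last pair not differing beyond their spread. In CPM the order of control means differed, with Glp1r at 22.9, Gcgr at 14.4 and Gipr at 12.6. All 3 receptors were lowest in mutants 2 and 3, the libraries with the fewest counts of hormone and beta cell genes, and the part of cell content in this was tested by covariate only.

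Among the G protein alpha subunits, the inhibitory family split. Gnai2 was at 57.7, 50.3, 56.9 and 42.2 CPM in controls and 37.1, 17.4, 20.9, 37.0 and 41.1 in mutants. The groups were apart by a small gap, between control 4 and mutant 5. Gnai2 fell by 0.75 ± 0.26 on the log2 scale (edgeR's adjusted p 0.049). That call was lost without any one control, without mutant 3 (adjusted p up to 0.114) and without mutants 2 and 3 (0.0698). It was also lost with a filter of CPM of at least 1 in 4 libraries (0.0502), under which 12750 genes were tested. Its close relative Gnai3 went from 183, 197, 203 and 169 CPM to 242, 241, 236, 282 and 242. Mutant 4 was the highest, the other 4 mutants lay within a narrow band, and no mutant reached down to a control. Gnai3 rose by 0.40 ± 0.12 (edgeR's adjusted p 0.0308). With 1 library left out at a time, it stayed past the threshold only without control 3 or mutant 1 (adjusted p up to 0.0857 in the other 7 fits), and it missed the threshold with RLE scaling, with no low-count filter and without mutants 2 and 3 (0.0998). The count ratio of Gnai2 to Gnai3, in which scaling cancels, was 0.316, 0.255, 0.280 and 0.249 in controls and 0.153, 0.0720, 0.0887, 0.131 and 0.170 in mutants, with every mutant below every control. This pair and the other ratios given here were chosen after their values were seen and carry no test.

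Gnaz, an inhibitory subunit insensitive to pertussis toxin that restrains cAMP in islets, read 73.1, 63.4, 44.6 and 60.2 CPM in controls and 42.4, 1.89, 8.49, 24.7 and 32.0 in mutants. Its groups were apart, with control 3 and mutant 1 nearly touching. At -1.46 ± 0.63 it did not pass edgeR's test (adjusted p 0.0988), and it passed without mutants 2 and 3 at -0.92 (adjusted p 0.0299) and without mutant 2 alone at -1.22 (0.0438). Gnas, which encodes the stimulatory alpha subunit that couples these receptors to adenylyl cyclase, overlapped between groups at 275 to 433 CPM and 83.4 to 411, with a log2 fold change of -0.79 (edgeR's adjusted p 0.153). Mutant 4 was its highest mutant, and without it Gnas was lower at -1.28 (adjusted p 0.0177), while without mutants 2 and 3 it was at -0.42 (0.318). Gnas shares exon bases with the antisense gene Nespas and with Gm20721, both on the opposite strand. Without knowledge of strand in the counting, the reads of such genes cannot be told apart. The same limit holds for Adcy3 (overlapped by Cenpo), Adcy6, Rapgef3, Rapgef4, Pde3a, Pde7a, Pde8b and Sik2 (by Ppp2r1b). Gnai1, the remaining inhibitory subunit, had its highest level in mutant 4, at 89.4 CPM, and its log2 fold change of 0.93 did not pass (edgeR's adjusted p 0.0638). The value was 0.48 without mutant 4 (0.103), and it passed without mutant 1, at 1.05 (0.0406). Per kilobase Gnai3 led the subunits in controls, at 57.7 ± 4.68 CPM per kb (SD, n = 4), before Gnas at 33.4 ± 6.83, Gnai2 at 22.5 ± 3.12, Gnaz at 16.7 ± 3.28 and Gnai1 at 7.61 ± 2.09. The place of Gnas rests on the length used, the union of all its annotated exons, 10376 bases beside 3262 for Gnai3. In CPM Gnas was the higher of the pair, with control means of 347 and 188.

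No adenylyl cyclase passed the test with all 9 libraries. Of 7 genes only Adcy3, Adcy6 and Adcy9 were counted often enough to be tested. Adcy6, a cyclase inhibited by calcium, was at 13.4, 14.5, 11.1 and 10.7 CPM in controls and 8.60, 10.2, 10.2, 7.46 and 10.3 in mutants. All 5 mutants lay just under the lowest control, and the log2 fold change of -0.41 ± 0.18 gave an adjusted p of 0.104 in edgeR's test. Adcy3 stood at -1.51 (0.139) and Adcy9, which is little affected by forskolin, at -0.85 (0.0811) by the same test. Mutant 1 held the highest level of Adcy3 among the mutants, at 2.66 CPM, and without it both genes were called lower, Adcy3 at -2.92 (edgeR's adjusted p 0.00355) and Adcy9 at -1.12 (0.0238). Without mutants 2 and 3, Adcy3 was at -0.94 (0.336). With all libraries, DESeq2 called Adcy6 and Adcy9 lower, and limma-voom called Adcy3 and Adcy9. Adcy8, a calcium-stimulated cyclase, had 13 counts over the 4 controls and 0 over the 5 mutants. Adcy7 had 12 and 3, Adcy1 had 4 and 14, and Adcy5 was listed at 0 in all 9 libraries. Mafa, a beta cell factor, was at 0 in all controls but, unlike Adcy5, was counted among the mutants. What the counts of 0 of either gene owe to the counting was not tested. Per kilobase the 3 tested cyclases were among the lower genes of the pathway in controls, at 2.06 ± 0.30 CPM per kb (SD, n = 4) for Adcy6, 1.71 ± 0.41 for Adcy9 and 0.449 ± 0.15 for Adcy3.

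Of the 7 genes for PKA and its anchor, 3 fell and none rose, where 11.8% of all tested genes fell and 20.6% rose. Prkar1a, the type I regulatory subunit that holds the catalytic subunits inactive until cAMP binds, is on chromosome 11 at positions 109649405 to 109669656. It was read at 1340.4, 1168, 1224 and 1203.5 CPM in controls and at 806, 290.5, 376, 467 and 528 in mutants. The highest mutant was well below the lowest control. Prkar1a fell by 1.32 ± 0.27 on the log2 scale (edgeR's adjusted p 0.00722), and the call held whichever single library was left out. By its mean it was the most abundant gene of the pathway per kilobase, at 303 ± 18.3 CPM per kb (SD, n = 4) in controls and 121 ± 48.3 (n = 5) in mutants.

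Prkar1b, its mainly neuronal relative, was at 30.3, 26.2, 24.7 and 29.7 CPM in controls and 11.1, 2.56, 3.03, 14.5 and 12.8 in mutants. Mutants 2 and 3 were lowest, and the other 3 were still clear of the controls. It fell by 1.65 ± 0.47 (edgeR's adjusted p 0.0253), a call lost without control 1 or control 4, at adjusted p values up to 0.0626. Akap13, a large anchoring protein that binds PKA, went from 44.8, 56.6, 32.6 and 45.8 CPM to 22.3, 12.7, 13.7, 18.9 and 25.2. Here mutants 2 and 3 lay close to the other mutants, and all 5 were under the lowest control. Akap13 fell by 1.28 ± 0.24 (edgeR's adjusted p 0.00525), and kept its call with each single library left out.

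Prkacb, a catalytic subunit, was at 208, 151, 157 and 176 CPM in controls and 139, 22.6, 45.2, 109 and 104 in mutants. Its groups were apart without passing, at -1.04 ± 0.44 (edgeR's adjusted p 0.0884). It was at -0.62 without mutants 2 and 3 (0.0551), and passed without mutant 1, at -1.31 (0.0432). Prkaca, the other catalytic subunit, was at -0.81 (0.0709), and the type II regulatory subunits Prkar2a and Prkar2b were at -0.18 (0.528) and -1.28 (0.265), with overlapping groups in all 3. Without mutants 2 and 3, Prkar2b was at -0.64 (0.301). The count ratio of Prkar1a to Prkar2a ran from 47.0 to 102 in controls and from 19.6 to 45.6 in mutants, without overlap, whereas that of Prkar1a to Prkacb overlapped, at 6.43 to 7.80 and 4.29 to 12.8.

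Rapgef4 encodes Epac2, the PKA-independent cAMP sensor of beta cells. It was at 91.0, 87.9, 72.8 and 89.1 CPM in controls and 48.2, 0.809, 12.3, 36.9 and 36.9 in mutants. Mutant 2 was nearly devoid of it and the other mutants were spread widely below the controls. That spread left -1.66 ± 0.71 short of the threshold (edgeR's adjusted p 0.0967), while without mutants 2 and 3 the gene passed at -1.12 ± 0.18 (adjusted p 0.00653), as it did without mutant 2 alone, at -1.40 (0.0175). Rapgef4 shares exon bases with the antisense gene Rapgef4os2. Rapgef3, encoding Epac1, had 22 counts over the controls and 11 over the mutants and was not tested.

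Of 9 phosphodiesterases tested, 3 fell and 1 rose, beside 11.8% and 20.6% of all tested genes. Pde3b (chromosome 7, positions 114415281 to 114539251), the enzyme inhibited by cGMP that limits cAMP in beta cells, was at 60.4, 71.6, 42.9 and 46.5 CPM in controls and 25.7, 8.49, 14.9, 15.8 and 28.4 in mutants. The groups were separate, with mutant 2 lowest. Pde3b fell by 1.57 ± 0.33 (edgeR's adjusted p 0.00778), and did so with each single library left out. Pde10a, which hydrolyses both cyclic nucleotides, was at 25.2, 21.1, 19.0 and 19.8 CPM in controls and 10.8, 0.404, 4.25, 3.22 and 6.29 in mutants. Even the highest mutant was far under the controls. It fell by 2.08 ± 0.58 (edgeR's adjusted p 0.0229), a call lost without control 1 or mutant 3 (adjusted p up to 0.061). Pde1c, a calmodulin-dependent enzyme, had the largest fall of the 14 called genes, from 49.9, 52.1, 61.0 and 39.9 CPM to 24.1, 0.135, 1.52, 5.56 and 10.4. Its mutants ran from 1 count, in mutant 2, to a level still below every control, in mutant 1. Its fall of 2.59 ± 0.83 (edgeR's adjusted p 0.0376) lost its call without any one control or any one of mutants 3 to 5 (adjusted p up to 0.0771).

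Pde4a, a cAMP-specific enzyme, went the other way. Controls were at 6.56, 5.41, 6.44 and 6.59 CPM and mutants at 9.81, 13.7, 10.6, 9.80 and 9.63. Mutant 2, with the fewest hormone counts, was the highest. Pde4a rose by 0.78 ± 0.19 (edgeR's adjusted p 0.0139), a call lost without mutant 3 (0.0507) and without mutants 2 and 3 (0.58, adjusted p 0.0898). The count ratio of Pde3b to Pde4a was 6.65 to 13.2 in controls and 0.618 to 2.94 in mutants. Pde3a, too low to test in the main fit, had 17, 8, 14 and 15 counts in controls and 2, 0, 0, 1 and 7 in mutants. In CPM every mutant lay below every control. It was tested and called lower with no low-count filter, with CPM of at least 1 in 4 libraries and without control 2.

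The other 5 tested phosphodiesterases overlapped between groups. Pde4b, another cAMP-specific enzyme, was at -1.37 (edgeR's adjusted p 0.0564), Pde8a at -1.08 (0.206), Pde7a at -0.35 (0.681) and Pde4d at -0.09 (0.73). Pde4b was called lower without mutant 1, its highest mutant, at -1.91 (edgeR's adjusted p 0.00726), and without mutant 2, at -1.18 (0.0389). Pde8a was at -0.64 without mutants 2 and 3 (0.157), and Pde7a at 0.16 without control 3 (0.871). Pde8b was at 14.7 and 12.1 CPM in mutants 2 and 3, where hormone counts were fewest, and at 0.684 to 3.75 in the other 7 libraries. Its log2 fold change of 1.86 did not pass (edgeR's adjusted p 0.0684), and was 0.50 without those mutants. It passed without mutant 4, at 2.07 (0.045). Per kilobase the leading phosphodiesterases of the controls were Pde4b, at 11.8 ± 2.07 CPM per kb (SD, n = 4), and Pde3b, at 8.42 ± 2.01, whose ranges overlapped.

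**Figure D2:**
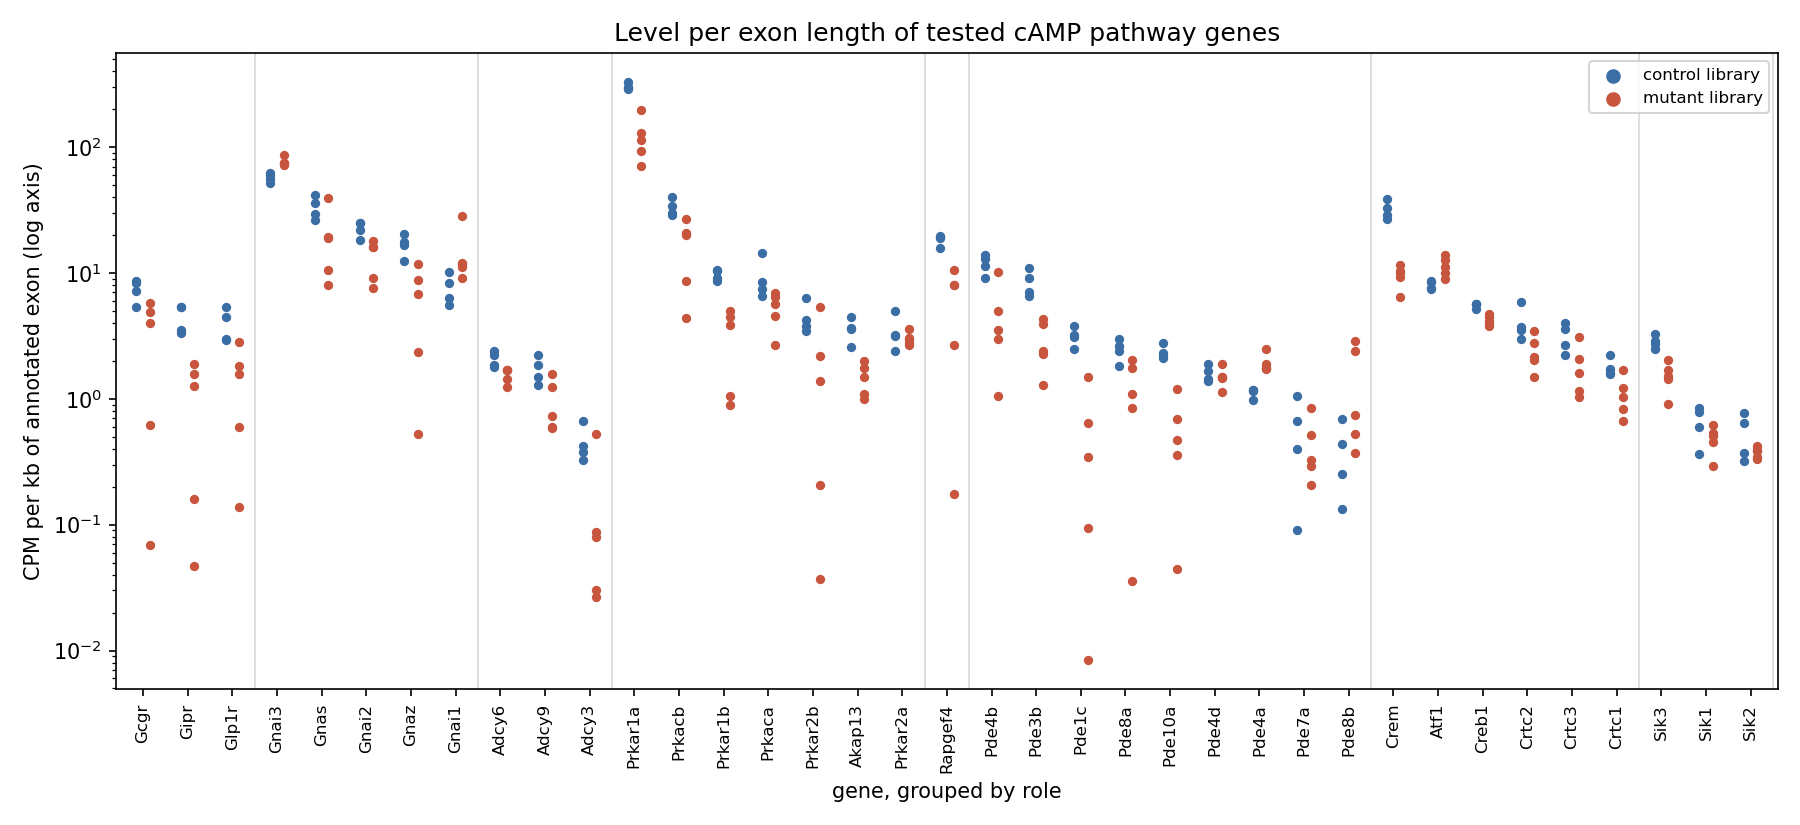
CPM per kilobase of annotated exon, on a log axis, for each tested gene in each control (blue) and mutant (red) library, grouped by role. Prkar1a has the highest mean in both groups, though its lowest mutant (71.4) lies below every mutant of Gnai3 (72.4 to 86.3). Crem, at 31.7 in controls and 9.54 in mutants on average, passes from above Atf1 (8.05 and 11.4) to about its level.

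In the nucleus, Crem had the lowest p of the 37 genes. Crem encodes cAMP-responsive activators and repressors, among them the repressor ICER, made from an internal promoter that cAMP itself induces. With 1 value per gene, its isoforms cannot be told apart. Crem was at 144, 191, 163 and 133 CPM in controls and 57.6, 31.8, 46.3, 51.8 and 49.4 in mutants. Mutant 2 was the lowest, mutant 3 lay among the others, and the highest mutant was far from the lowest control. Means were 157 ± 25.4 CPM (SD, n = 4) and 47.4 ± 9.65 (n = 5), a fall of 1.73 ± 0.19 on the log2 scale (edgeR's adjusted p 0.00147) that ranked 23 by p among all 12402 genes. With each single library left out, the value stayed between -1.82 and -1.67, with an adjusted p of at most 0.00828.

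Creb1, the prototype of the family, changed less. It was at 49.9, 49.6, 49.8 and 45.2 CPM in controls and 41.4, 34.8, 39.3, 33.1 and 36.1 in mutants. Controls 1 to 3 were nearly identical, and all mutants were under control 4. Creb1 fell by 0.40 ± 0.12 (edgeR's adjusted p 0.029), a call lost without control 1, control 3 or mutant 5 (up to 0.0736) and without mutants 2 and 3 (0.0693). Atf1, the third family member, was at 18.04, 17.7, 20.03 and 20.3 CPM in controls and 30.2, 23.6, 26.4, 21.4 and 32.8 in mutants. Mutant 4 was just above the highest control. Atf1 rose by 0.50 ± 0.16 (edgeR's adjusted p 0.0373), but with 1 library left out at a time it passed only without mutant 4 (adjusted p up to 0.12 in the other 8 fits), and it missed the threshold without mutants 2 and 3 (0.0982), with RLE scaling, with TMM computed without the hormone genes, with no low-count filter and in DESeq2.

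Ratios within the family do not depend on scaling. Crem counts were 6.52 to 10.8 times those of Atf1 in controls and 1.35 to 2.42 times in mutants. Against Creb1 they were 2.88 to 3.84 times and 0.915 to 1.57 times. Neither ratio overlapped between groups. The 3 CRTC coactivators did not pass, with Crtc1 at -0.71 (edgeR's adjusted p 0.0779), Crtc2, the main CREB coactivator of metabolic tissues, at -0.76 (0.0685) and Crtc3 at -0.79 (0.0911). Without mutant 1, Crtc1 was called at -0.93 (0.0209) and Crtc3 at -1.09 (0.018). Crtc2 differed from most genes of the set in that its change was larger without mutants 2 and 3, at -1.16 ± 0.31 (edgeR's adjusted p 0.0319), those mutants being the highest of the 5, at 9.57 and 7.58 CPM. It also passed without mutant 2 alone, at -1.01 (0.0326), and without control 2, at -0.97 (0.0481).

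Sik3, a kinase that phosphorylates CRTCs, was at 18.2, 15.7, 17.2 and 20.6 CPM in controls and 10.7, 9.57, 8.95, 5.71 and 12.8 in mutants. The groups were apart, and here mutant 4 was lowest. Sik3 fell by 0.91 ± 0.23 (edgeR's adjusted p 0.0153), and kept its call with each single library left out. Its relatives Sik1, itself a cAMP-induced gene, at -0.41 (0.37), and Sik2, at -0.50 (0.258), did not pass and were scarce, at 1.32 to 4.25 CPM over both genes and all 9 libraries. The Sik3 to Sik2 count ratio overlapped between groups, at 4.84 to 10.2 and 2.44 to 6.

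CREB binds the cAMP response element TGACGTCA, or its shorter core TGACG. Promoters of 3 called genes with a match are shown, so that the letters behind the counts of matches can be seen. From RefSeq (build GRCm38.p6), 64 windows of 250 bases before to 50 after an annotated start were read, covering 33 of the 44 genes. Both motifs were searched on both strands, and each full element also holds a core on each strand. The 250 bases before the start are printed for 3 genes, all on the plus strand and 5′ to 3′, with matches in capitals. They are Prkar1a at chr11:109650699-109650948, Sik3 at chr9:46012570-46012819 and Pde4a at chr9:21183851-21184100, an internal start of that gene.
Prkar1a: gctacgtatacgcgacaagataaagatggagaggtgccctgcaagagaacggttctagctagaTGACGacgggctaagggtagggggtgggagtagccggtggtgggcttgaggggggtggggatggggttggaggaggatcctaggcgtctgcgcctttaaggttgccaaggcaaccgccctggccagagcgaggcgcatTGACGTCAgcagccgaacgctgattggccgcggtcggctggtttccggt
Sik3: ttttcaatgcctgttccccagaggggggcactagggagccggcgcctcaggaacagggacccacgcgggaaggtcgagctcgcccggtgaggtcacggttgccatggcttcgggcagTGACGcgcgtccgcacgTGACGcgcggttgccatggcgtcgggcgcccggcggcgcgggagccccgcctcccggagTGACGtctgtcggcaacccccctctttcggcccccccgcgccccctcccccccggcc
Pde4a: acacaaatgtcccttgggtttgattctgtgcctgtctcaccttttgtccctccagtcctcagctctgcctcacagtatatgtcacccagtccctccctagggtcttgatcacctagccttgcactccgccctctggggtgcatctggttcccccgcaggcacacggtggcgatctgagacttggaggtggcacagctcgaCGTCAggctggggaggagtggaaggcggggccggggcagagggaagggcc

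The Prkar1a window had the full element, with its first base 49 bases before the start, and a further core at 187. The Sik3 window had 3 cores, at 133, 116 and 57 bases before the start, and the Pde4a window 1, at 50, on the opposite strand. The full element occurred in 2 of the 64 windows, both of Prkar1a and overlapping each other, and in 1.79% of all 32851 RefSeq windows. The core occurred in 21 of the 64 (32.8%) and in 20.8% of all. By call, the core was in 5 of the 19 windows of lower genes (26.3%), 3 of the 5 of higher genes and 11 of the 33 of tested genes without a call (33.3%). The called genes Creb1, Pde1c, Akap13 and Pde10a had windows without a match, and 17 of the 33 genes had a match in some window. A match describes these letters and is not a measured binding site. Pde3b, Pde3a, Adcy8, Gnai2, Gnaz, Gipr, Pde7a, Sik1, Adcy6 and Crtc2 had no entry. Crem, the pathway's gene on chromosome 18, was left out of the search, so its promoters were not examined. Windows of that chromosome were not removed from the shares over all windows.

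The change differed between mutant libraries. In mutant 2, which had 0.0691% hormone counts, 9 of the 37 genes were over 4 log2 units below the control mean, 14 were 1 to 4 units below, 12 were within 1 unit and 2 were over 1 unit above. The 9 were Pde1c, Rapgef4, Prkar2b, Gcgr, Pde10a, Gipr, Gnaz, Pde8a and Glp1r, at -6.98, -6.31, -5.34, -5.18, -5.00, -4.98, -4.79, -4.57 and -4.38, most of them resting on very few counts. The endocrine score of that library was 5.24 units below the controls (-5.24). In contrast Crem was at -2.28 there, Prkar1a at -2.08 and Akap13 at -1.78, and Pde4d (-0.09), Atf1 (0.31), Gnai3 (0.36), Gnai1 (0.58), Pde4a (1.11) and Pde8b (2.95) were at or above the control mean. This ordering is a description of 1 library, made after its values were seen.

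**Figure D3:**
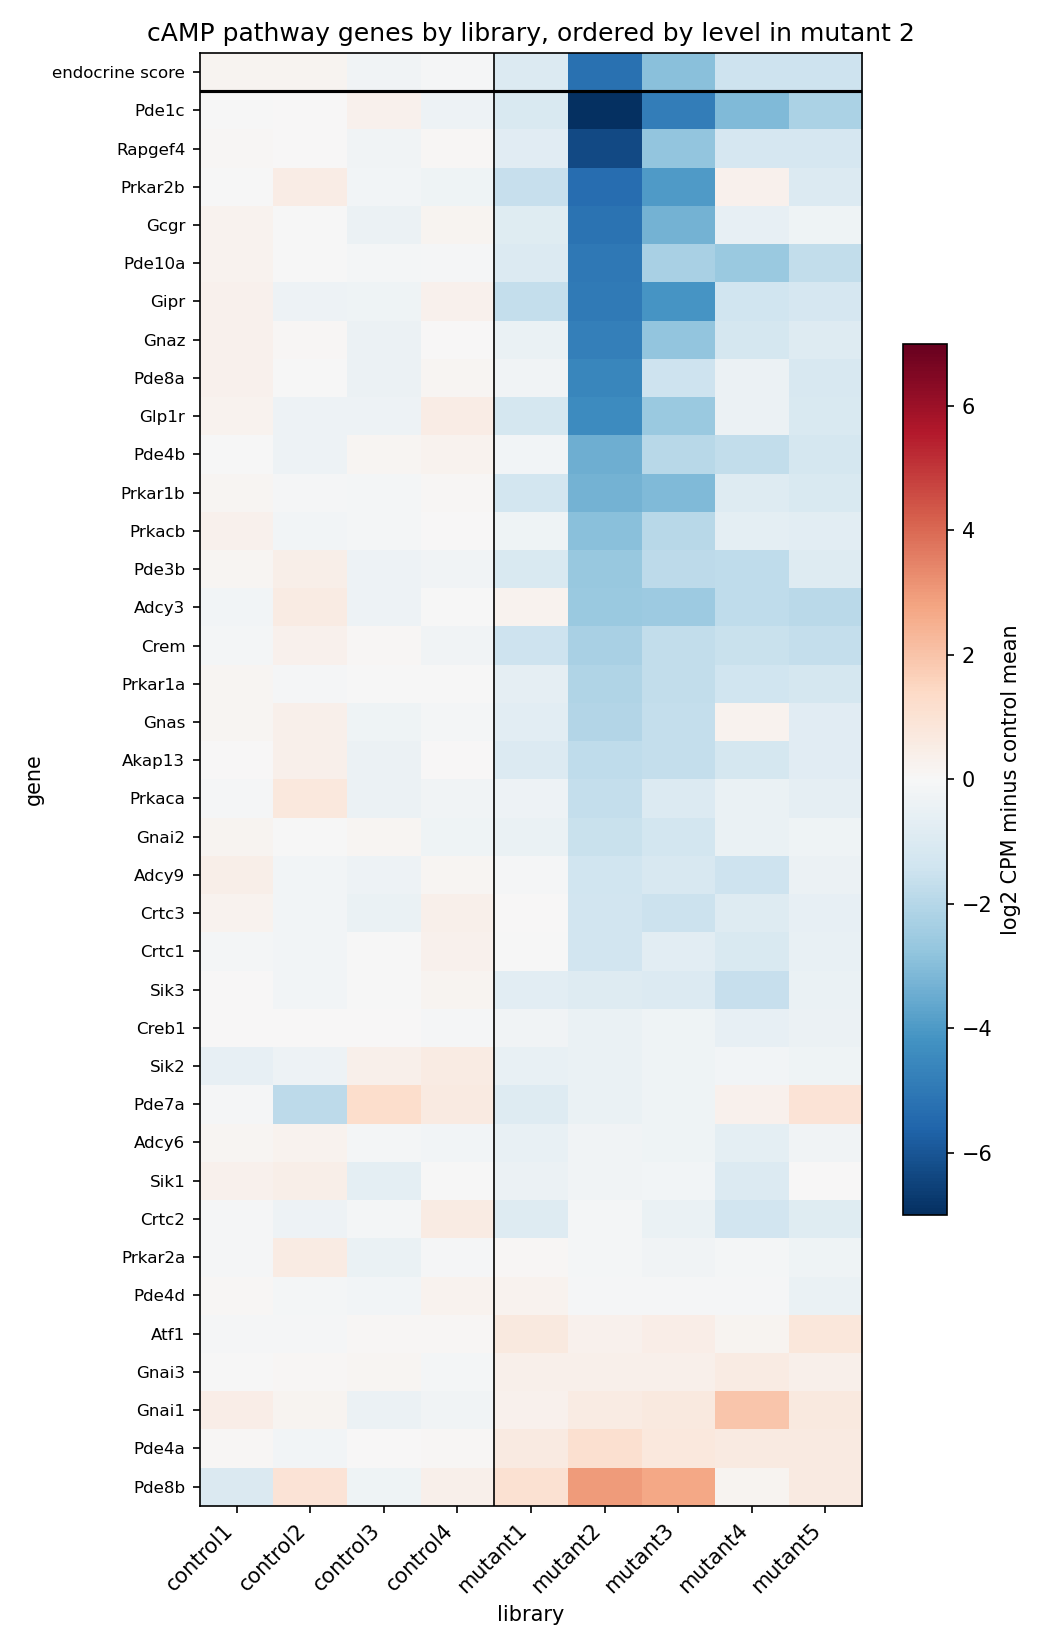
Log2 CPM minus the control mean for the 37 tested genes in the 9 libraries, ordered by their value in mutant 2, with the endocrine score in the top row. Colour runs from -7 (blue) to 7 (red), and the deepest blue is in the column of mutant 2, from Pde1c (-6.98) down to Glp1r (-4.38).

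Changes were then set beside the endocrine score by adding it to the model as a covariate, a fit in which the score, itself partly set by genotype (51.3% of its variance lay between groups), takes up whatever moves with it. In that fit 1 of the 37 genes, Crem, was lower and none higher, where 0.411% and 3.23% of all tested genes were lower and higher, and 12 had an unadjusted p under 0.05. Crem was at -1.31 ± 0.20 (edgeR's adjusted p 0.0142). The median of the 37 was -0.07 and 21 of 37 values were negative, beside 0.13 for all genes. Incretin receptors turned to 0.28 for Glp1r, 0.14 for Gipr and 1.36 for Gcgr, none of which passed. Sik3 (-0.87), Akap13 (-0.76), Pde3b (-0.73) and Prkar1a (-0.70) kept their sign without passing, at adjusted p values of 0.163, 0.124, 0.172 and 0.124, and Crtc2 was at -1.35 (0.0653). With the acinar score as the covariate, 92.8% of whose variance lay between groups, no gene at all was called, and 3 of the 37 had an unadjusted p under 0.05, so that genotype and acinar content cannot be told apart in these libraries. Without mutants 2 and 3, 13 of the pathway's genes were lower and none higher, against 9.78% and 10.8% of all genes tested there, and 9 of the 14 genes were called again.

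**Figure D4:**
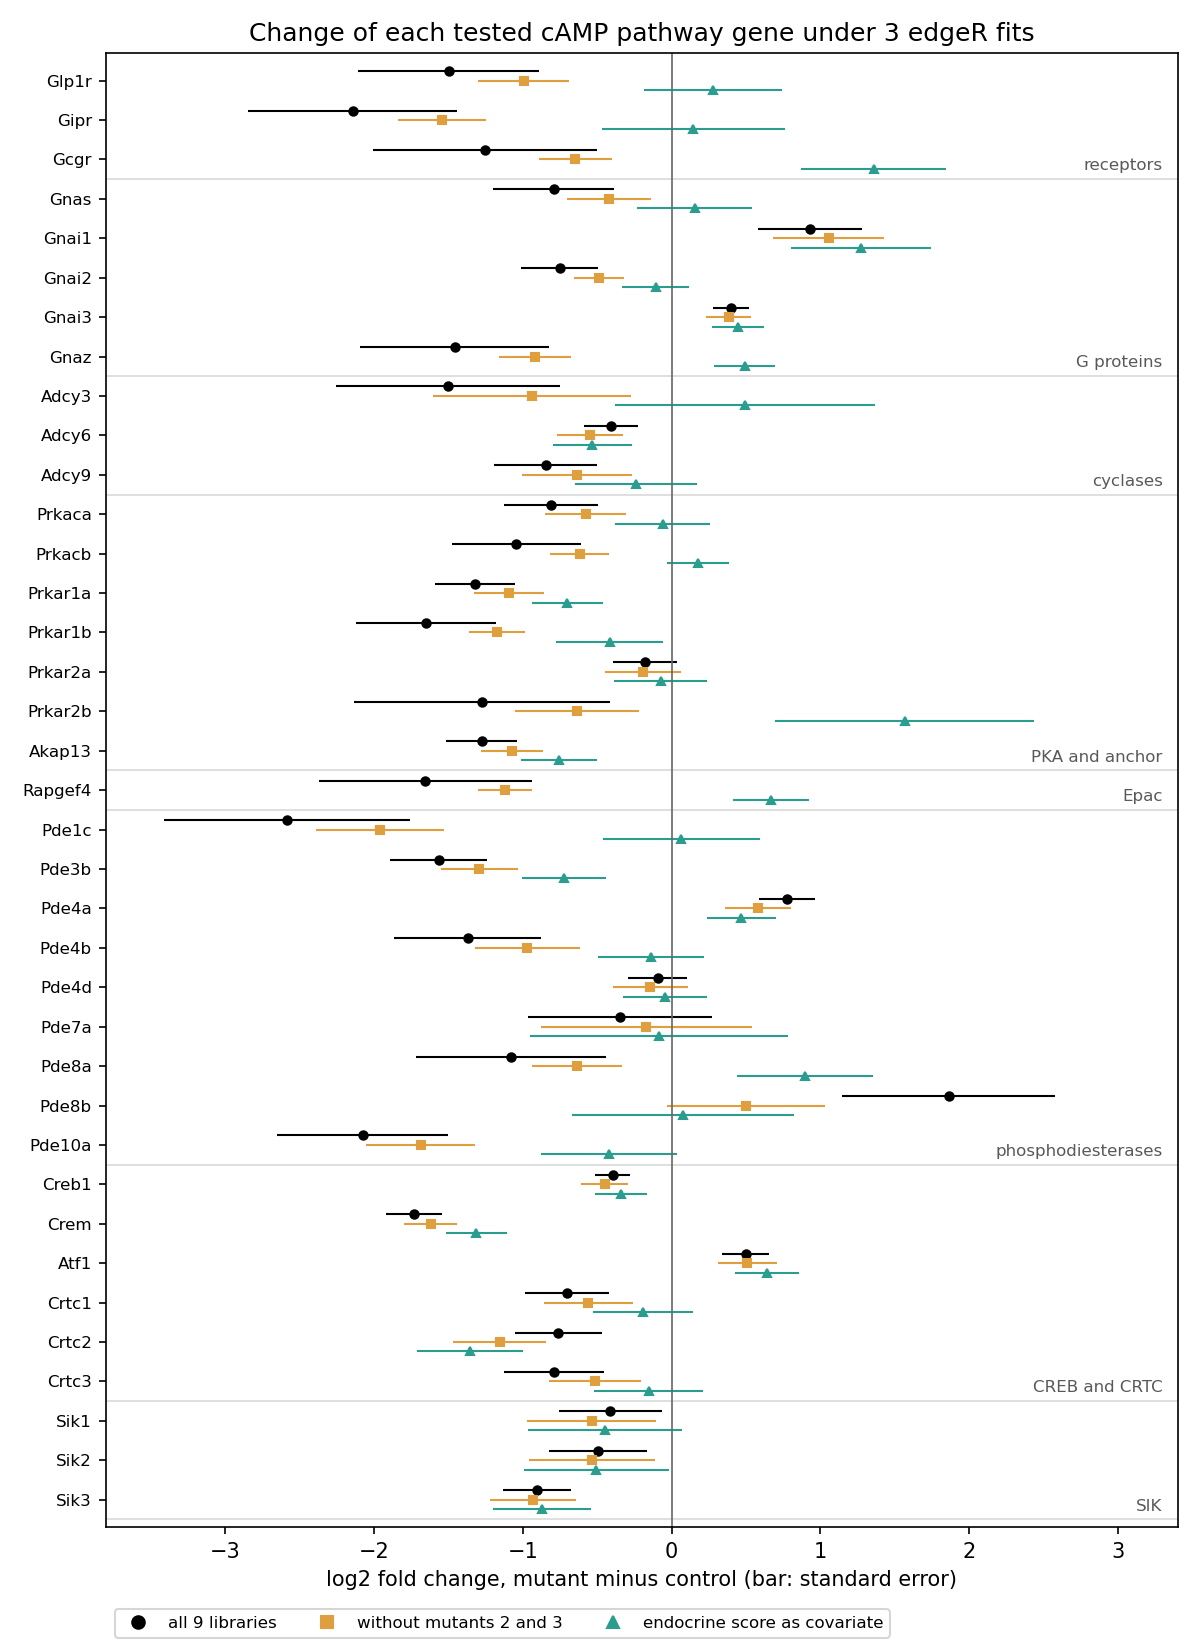
Log2 fold change (mutant minus control, bars 1 SE) of each tested gene with all 9 libraries (black), without mutants 2 and 3 (orange) and with an endocrine score covariate (green), grouped by role. The 3 values of Crem lie between -1.73 and -1.31, while those of Glp1r, Gipr and Rapgef4 cross 0 with the covariate.

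Genes of the wider pathway were counted from a list of 93, of which 81 were tested, 11 fell, 10 rose and 60 did not pass, with a median of -0.34. The share that fell was close to the 11.8% of all tested genes, and the share that rose was below the 20.6% of all, shares that also apply to the smaller groups of the list. Among the other receptors of the list, not all of them coupled to cAMP, 4 of 15 fell and 5 rose. The prostaglandin E2 receptor Ptger4, which couples to the stimulatory G protein, rose from 4.06 ± 0.70 CPM (SD, n = 4) to 14.0 ± 5.01 (n = 5), by 1.78 on the log2 scale (edgeR's adjusted p 0.00366). It was the 1 gene of the 81 called with the endocrine covariate, at 2.33 (0.01). The inhibitory prostaglandin receptor Ptger3 rose by 2.15 (edgeR's adjusted p 0.0112), with overlapping groups. The lowest p among falls were those of the adenosine receptor Adora2a, from 14.8 ± 4.37 to 2.29 ± 1.78 CPM (-2.68, 0.00649), the somatostatin receptor Sstr1 (-2.75, 0.0138) and the VIP receptor Vipr1 (-0.90, 0.034). Without mutants 2 and 3, Vipr1 did not pass, at -0.94 (edgeR's adjusted p 0.066), while the other receptors named here did.

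Among 23 other G protein and regulator genes, 3 fell and 1 rose. Gng12, a gamma subunit, fell by 1.15 (edgeR's adjusted p 0.0102), Rgs17, which speeds the shut-off of inhibitory subunits, by 2.48 (0.0138) and Gna14, of the Gq family, by 0.93 (0.0321), while Rgs2 rose by 0.97 (0.0311). Without mutants 2 and 3, Gna14 (-0.84, edgeR's adjusted p 0.1) and Rgs2 (0.86, 0.099) did not pass. Of 6 other cyclases and phosphodiesterases, 1, the cGMP-stimulated Pde2a, rose, from 6.99 ± 3.23 to 20.2 ± 5.42 CPM (1.52, 0.0137). Pde2a did not pass without mutants 2 and 3, at 1.21 (edgeR's adjusted p 0.0609). Of 22 further PKA and Epac genes the anchors Akap11 (-1.21, 0.00905) and Akap6 (-2.05, 0.028) fell, and Akap1, which places PKA at mitochondria, rose by 1.83 (0.0102). Of 15 further genes listed with CREB, not all of them cAMP-responsive factors, Creb3l2 (-1.49, 0.00961) and Crebzf (-0.66, 0.028) fell. Ppp3ca, the calcineurin catalytic subunit that dephosphorylates CRTCs, rose by 0.90 (0.0085) and Creb3 by 0.50 (0.049). Creb3 did not pass without mutants 2 and 3, at 0.46 (edgeR's adjusted p 0.13).

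The last step read was a list of 22 genes known as CREB targets. Of 19 tested, 8 fell, 2 rose and 9 did not pass, with a median of -1.12, beside 11.8% falling, 20.6% rising and a median of 0.04 over all tested genes. Sst, Scg2, Vgf and Pcsk1 are also products of endocrine cells, and without them 6 of 15 fell and 2 rose, with a median of -0.56. Nr4a1, an orphan nuclear receptor rapidly induced by cAMP, was at 52.1, 37.2, 41.6 and 43.1 CPM in controls and 15.4, 6.20, 8.80, 8.49 and 11.4 in mutants. Mutant 1 was the highest mutant and still far below the controls. Nr4a1 fell by 2.11 ± 0.25 (edgeR's adjusted p 0.00147), and with the endocrine covariate it was at -1.56 (0.0175).

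Vgf, a neuropeptide precursor, fell by 2.72 (edgeR's adjusted p 0.00656) and Irs2, the insulin receptor substrate that keeps beta cells alive, by 1.64 (0.0114). Junb, an early AP-1 gene, also fell, from 137, 97.2, 99.2 and 220.3 CPM to 48.6, 80.3, 79.5, 50.5 and 59.3. Control 4 was the highest by far, and mutants 2 and 3 were the highest mutants. Junb was at -1.12 (0.0139), and at -1.57 (0.0487) with the endocrine covariate, where it and Nr4a1 were the 2 targets called. Rgs2 (0.97, 0.0311) and Btg2 (1.25, 0.0315), an antiproliferative gene, rose, with overlapping groups. Neither passed without mutants 2 and 3, at 0.86 (edgeR's adjusted p 0.099) for Rgs2 and 0.59 (0.152) for Btg2.

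**Figure D5:**
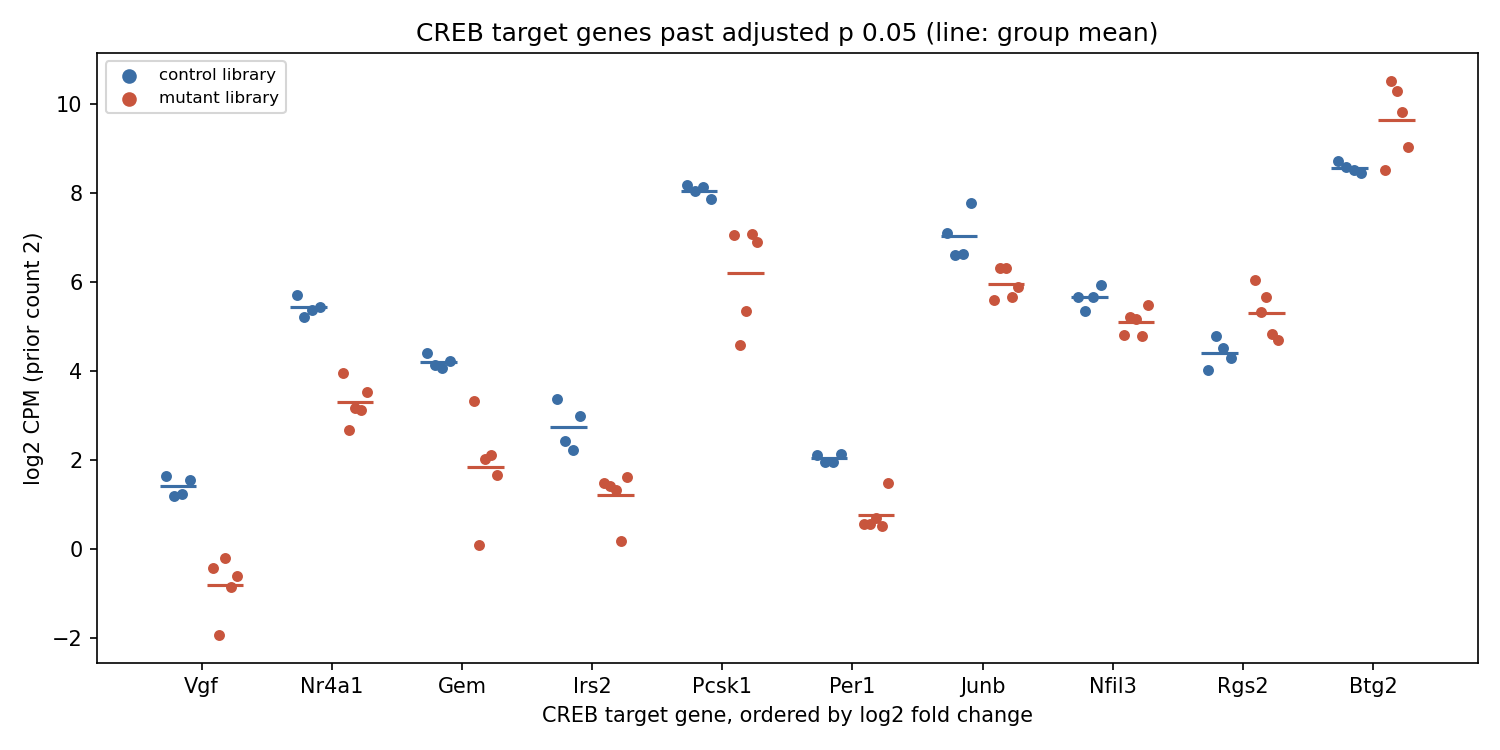
Log2 CPM, with a prior count of 2, of the 10 CREB target genes past the threshold, in each control (blue) and mutant (red) library, with lines at the group means and genes ordered by fold change. The Nr4a1 mutants lie below the controls, and Rgs2 and Btg2, at the right, are the 2 higher genes.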

How the data were processed

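Polyadenylated RNA of male mouse islets was measured in 4 control and 5 mutant libraries, grouped by their titles and genotype labels. The authors deposited 1 whole-number count per gene and library, not normalized. For the whole project, the submitters' processing notes list Seurat, Signac, DESeq2, R 4.1.0, RSEM, HOMER, STAR, Cell Ranger and Bowtie2 with the build mm10 and no roles. The aligner, counter, annotation and strand setting behind these counts are not given in the sources used here.

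The 44 genes, the wider pathway, CREB target and marker lists, and the alternatives were chosen with earlier results of these data known. Counts of all genes were fitted with edgeR 4.0.16 (R 4.3.3) after filterByExpr and TMM scaling, without covariates, by the quasi-likelihood test with Benjamini-Hochberg adjustment at 0.05, two-sided. CPM used TMM-scaled totals, and log2 CPM a prior count of 2. Values per library are given for genes past the threshold, the receptors and genes whose groups did not overlap, and of each wider list up to 3 genes of lowest p per direction are named, 1 of which is not reported here. Lengths and coordinates are from GENCODE (GRCm38) exon unions, which may differ from the annotation counted, and promoters are from RefSeq. The endocrine score is the mean log2 CPM of the 24 genes of its list of 26 that passed the filter, and the acinar score that of 26 genes. Alternatives were RLE scaling, TMM without 7 hormone genes, no filter, CPM of at least 1 in 4 libraries, DESeq2 1.42.0, limma-voom (limma 3.58.1), both scores as covariates, a replicate block, leaving out single libraries, and leaving out mutants 2 and 3. The scripts were tested on simulated data. No 2 libraries agreed within sampling noise. Totals of 6092010 to 9163253 counts leave genes of a few counts imprecise, and limits on counts of 0 (3 counts) cover counting error only.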

Additional observations from a re-analysis of the deposited data

Results flagged for a closer look

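In 8 of 74 screens of a gene within a group, the highest or lowest library lay far from the rest by Dixon's criterion, which chance meets in about 1 in 20 groups (5%). The log2 CPM values were 6.49 for Gnai1 and 8.14 for Gnai3, both in mutant 4 and both the highest of the mutants, 1.55 for Adcy3 in mutant 1, again the highest, 3.81 for Pde4a (the highest) and -1.33 for Pde8a (the lowest) in mutant 2, 6.19 for Rapgef4 in control 3, 2.51 for Pde4a in control 2 and 5.51 for Creb1 in control 4, each the lowest of the controls. The values of Gnai3, Pde4a and Creb1 belong to genes past the threshold.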

How the results depend on the processing

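The 11 lower and 3 higher calls among the pathway's 37 tested genes became 22 lower with DESeq2 and 22 with limma-voom, 1 higher with RLE scaling and 1 with no low-count filter, 0 higher without mutants 2 and 3, 0 and 0 with the acinar covariate, and 1 and 0 with the endocrine covariate. Leaving out each library gave 5 to 17 lower and 0 to 3 higher. In the wider list, 11 lower and 10 higher became 20 lower with RLE scaling, 30 with DESeq2 and 27 with limma-voom, 0 and 0 with the acinar covariate, 0 and 1 with the endocrine covariate, 19 and 5 without mutants 2 and 3, and 7 to 20 and 6 to 13 with single libraries left out. Of the CREB targets, 8 lower and 2 higher became 0 and 0 with the acinar covariate, 2 and 0 with the endocrine covariate, 0 higher without mutants 2 and 3, and 6 to 11 and 0 to 2 with single libraries left out. The causes were not tested. The replicate numbers did not pair the libraries (same-number correlations of 0.05, -0.02, 0.18 and -0.05, and no control correlated best with the mutant of its own number). A fit with the replicate number as a block gave 9 lower and 0 higher for the pathway, 6 and 4 for the wider list and 0 higher targets.

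No gene of the pathway changed sign with RLE scaling, TMM without the hormone genes, either filter, DESeq2, limma-voom or without mutants 2 and 3. With the acinar covariate 26 did, none with an adjusted p below the threshold. These were Glp1r 0.40, Gipr 1.55, Gcgr 2.34, Gnai1 -0.81, Gnai2 0.56, Gnaz 2.64, Adcy3 3.79, Adcy9 2.34, Prkaca 0.12, Prkacb 1.62, Prkar1a 0.68, Prkar1b 0.47, Akap13 0.40, Rapgef4 1.63, Pde1c 3.09, Pde3b 0.88, Pde4b 2.45, Pde4d 0.32, Pde7a 0.43, Pde8a 1.29, Pde8b -2.33, Pde10a 1.99, Crtc1 1.48, Crtc3 2.26, Sik1 0.50 and Sik3 0.62. With the endocrine covariate 11 did, at Glp1r 0.28, Gipr 0.14, Gcgr 1.36, Gnas 0.15, Gnaz 0.49, Adcy3 0.49, Prkacb 0.18, Prkar2b 1.57, Rapgef4 0.67, Pde1c 0.065 and Pde8a 0.89. With single libraries left out, Pde7a ranged from -0.78 (without control 2) to 0.16 (without control 3). Genes with few counts in mutants 2 and 3 have the widest errors.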
